A study of Mus musculus with 10 samples.

Results

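The genes described here are the 32 TCA cycle and pyruvate metabolism genes of a list fixed by gene symbol, from the carrier that takes pyruvate into mitochondria to the dehydrogenases of the cycle and the enzymes that draw on it. All 32 symbols were found in each of the 4 comparison tables, which cover 13091 genes. RNA was sequenced from mouse neutrophils matured in culture from bone marrow progenitors, which a lentivirus carrying an estrogen-dependent HoxB8 had immortalized and which were grown up from single cells. The samples fell into 4 groups, all labelled with strain 129-SVEV: unstimulated *Vim+/+* cells (n = 2), *Vim+/+* cells given 25 ng/mL lipopolysaccharide (LPS, a bacterial cell wall component) for 1 hour (n = 2), unstimulated *Vim-/-* cells (n = 3) and *Vim-/-* cells given the same LPS dose and time (n = 3). *Vim* encodes vimentin, an intermediate filament protein. All 4 groups carry the HoxB8 transgene and differ by genotype and LPS alone in the labels. The labels call the *Vim-/-* cells a knockdown, while the series design and the methods describe cells of knockout mice, and the age of the mice was not given in the sources used here. The labels number biological replicates and give the unstimulated and LPS-treated library of a replicate the same identifier, without saying whether a replicate is a separate clone. The p-values therefore measure the spread between these samples left after the fitted covariates, and any other property shared by the few replicates of a genotype cannot be told apart from the genotype.

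The tables give fitted comparisons, so a value below is a fitted log2 fold change with its standard error (SE) rather than a value per library, and depth per library was unknown. A gene passed when its adjusted p from the authors' DESeq2 Wald test was under 0.05. The *Vim* transcript itself differed as the genotype labels state, by a log2 fold change of -13.56 (SE 0.335) in unstimulated and -12.44 (SE 0.243) in LPS-treated *Vim-/-* cells. Mean normalized counts of the 12 neutrophil markers, such as *S100a8* and *Ly6g*, ran from 11373 to 1290830 per gene. Markers of other cells were present as well. The 3 eosinophil markers ran from 4599 to 268319, the 3 mast cell or basophil markers in the tables from 593 to 26296, the 6 progenitor markers from 1075 to 121760 and the 5 monocyte or macrophage markers in the tables from 38.6 to 10073, and no marker in the tables was at 0.

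Pyruvate made by glycolysis enters mitochondria through the carrier of MPC1 and MPC2, and the pyruvate dehydrogenase complex turns it into acetyl-CoA, which citrate synthase joins to oxaloacetate. The cycle then oxidizes citrate in steps that yield NADH, and some intermediates leave it for lipid and amino acid synthesis. Mature neutrophils rely mainly on glycolysis and have few mitochondria, while activated myeloid cells are known for drawing citrate and its products into signalling and lipid synthesis.

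Transcripts of the pathway were abundant. The mean normalized count over the 10 libraries ran from 228 for *Pdp1* to 23231 for *Mdh2*, with a median of 3269 against 907 for all genes, and 26 of the 32 genes lay above that median. The 32 genes together held 0.295% of all normalized counts. Per kilobase of transcript, the scale on which genes can be compared, levels ran from 54.3 for *Pdp1* to 15956 for *Mdh2*, with a median of 1858 against 348 for the 12046 genes with a transcript length. *Mdh2*, the mitochondrial malate dehydrogenase, stood first, followed by *Idh1* (5489 per kilobase), *Cs*, citrate synthase (4372), *Glud1*, glutamate dehydrogenase (4196), and *Mpc2* (3783). The lowest levels belonged to *Pdp1* and *Pdk2* (135), a phosphatase and a kinase of pyruvate dehydrogenase, *Suclg2* (143), the GTP-forming subunit of succinyl-CoA ligase, *Pdk1* (153) and *Pcx*, pyruvate carboxylase (216). No spread over libraries comes with these means, so the order of neighbours was not tested.

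**Figure D1:**
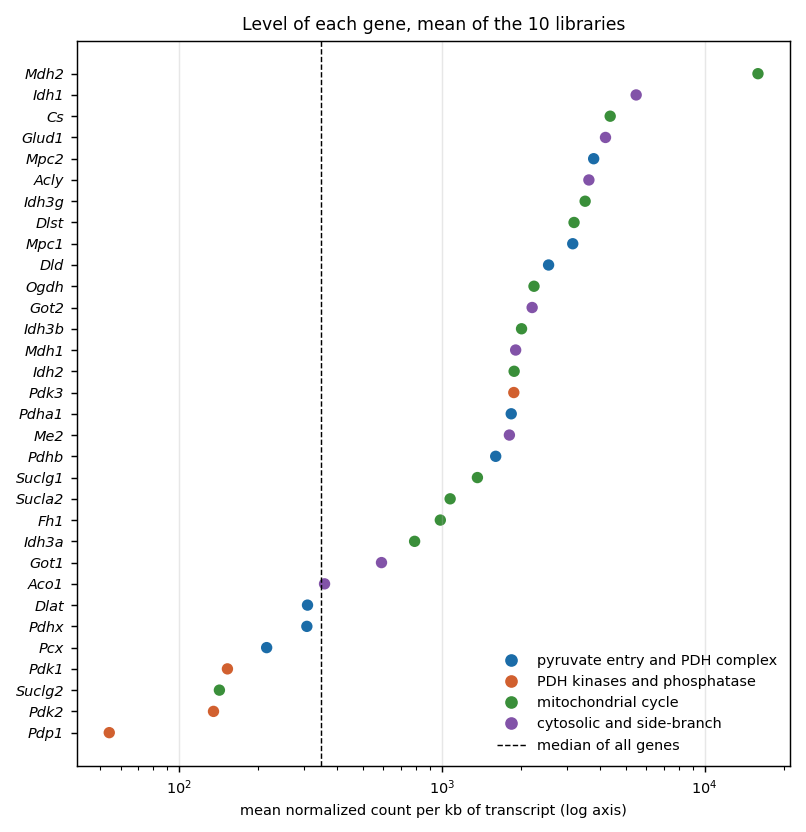
Each point is the mean normalized count per kilobase of transcript of 1 gene over the 10 libraries, on a log axis, coloured by the gene's role; the dashed line is the median of all genes (348). *Mdh2* stands apart at 15956, and 3 of the 4 genes that regulate the pyruvate dehydrogenase complex lie among the lowest, from 54.3 to 153.

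Unstimulated cells were compared to find differences between genotypes that are there before any stimulus, and LPS-treated cells to find those present after it. In unstimulated neutrophils most genes of the pathway, like most of all genes tested, did not pass the test between genotypes. Of the 32 genes 4 passed (12.5%), 2 higher and 2 lower in *Vim-/-* cells, against 18.8% of all genes tested and 21.2% of genes with a mean normalized count of at least 100, a level that all 32 genes exceed. The 4 were *Acly* and *Pdk2*, which were higher (against 12.6% of all genes), and *Mpc1* and *Mdh2*, which were lower (against 6.15%). At an unadjusted p under 0.05 there were 8 genes, 3 higher and 5 lower, against 29.5% of all genes. Fold changes were split evenly, 16 above (50%, against 55.9% of all genes) and 16 below 0, with a median of 0.01 against 0.08 for all genes. Of the 32 genes 27 differed by less than 0.5 log2 units (84.4%, against 59.1% of all genes), and for 29 the 95% interval lay within 1 log2 unit of 0 (90.6%, against 50.9% of all genes). The 32 genes had a smaller median SE (0.168, against 0.270 for all genes) and so narrower intervals. Genes of like count were not compared in this respect.

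After LPS 3 of the 32 genes passed between genotypes, *Acly* and *Pdk2* higher and *Mpc1* lower in *Vim-/-* cells, against 11% of all genes and 12.1% of those with a mean normalized count of at least 100. By direction, 6.68% of all genes were higher and 4.35% lower. At an unadjusted p under 0.05 there were 5 genes, against 22.1% of all genes. Values lay above 0 for 20 genes (62.5%, against 53.4% of all genes) and below 0 for 12, with a median of 0.08 against 0.03 for all genes. Each genotype comparison shares its libraries with the LPS comparisons, and the replicates of both states carry the same identifiers, so the comparisons are given side by side and not as support for each other.

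Markers of several cell types differed between the genotypes as well, beside 12.6% of all genes that were higher and 6.15% that were lower unstimulated, and 6.68% and 4.35% after LPS. In unstimulated *Vim-/-* cells 5 of the 12 neutrophil markers passed, all higher (among them *Camp*, 0.95, and *Mmp8*, 0.90), while 3 of the 6 progenitor markers passed, all lower (*Prtn3*, -1.14, *Ctsg*, -2.55, and *Cd34*, -1.01). Among the neutrophil markers 11 lay above 0 and *Retnlg* below it (-0.20, not passing). Among the progenitor markers 5 lay below 0 and *Kit* above it (0.21, not passing). Of the 5 monocyte or macrophage markers 2 passed, both lower (*Csf1r*, -0.93, and *Adgre1*, -0.40), as did 2 of 3 mast cell or basophil markers (*Cpa3*, -0.96). The monocyte or macrophage markers *Cd68* (0.07) and *Fcgr1* (0.08) lay above 0 and did not pass. Of the 3 eosinophil markers *Siglecf* passed, lower (-0.79), while *Epx* (0.67) and *Prg2* (0.29) had values above 0 and did not pass, with 1.01 and 0.66 after LPS. After LPS the numbers that passed were 2 neutrophil markers, higher, and 3 progenitor, 2 monocyte or macrophage, 1 mast cell or basophil and 1 eosinophil marker, all lower. Their part in the results for the pathway was not tested, and in such bulk samples fewer cells of a type and less RNA per cell cannot be told apart. The Wald statistics of all genes were also spread wider than their nominal value of 1, with a robust spread of 1.83 in unstimulated and 1.5 in LPS-treated cells. Divided by that spread after centring, none of the 32 genes passed in either genotype comparison, and 188 and 290 of all genes did.

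**Figure D2:**
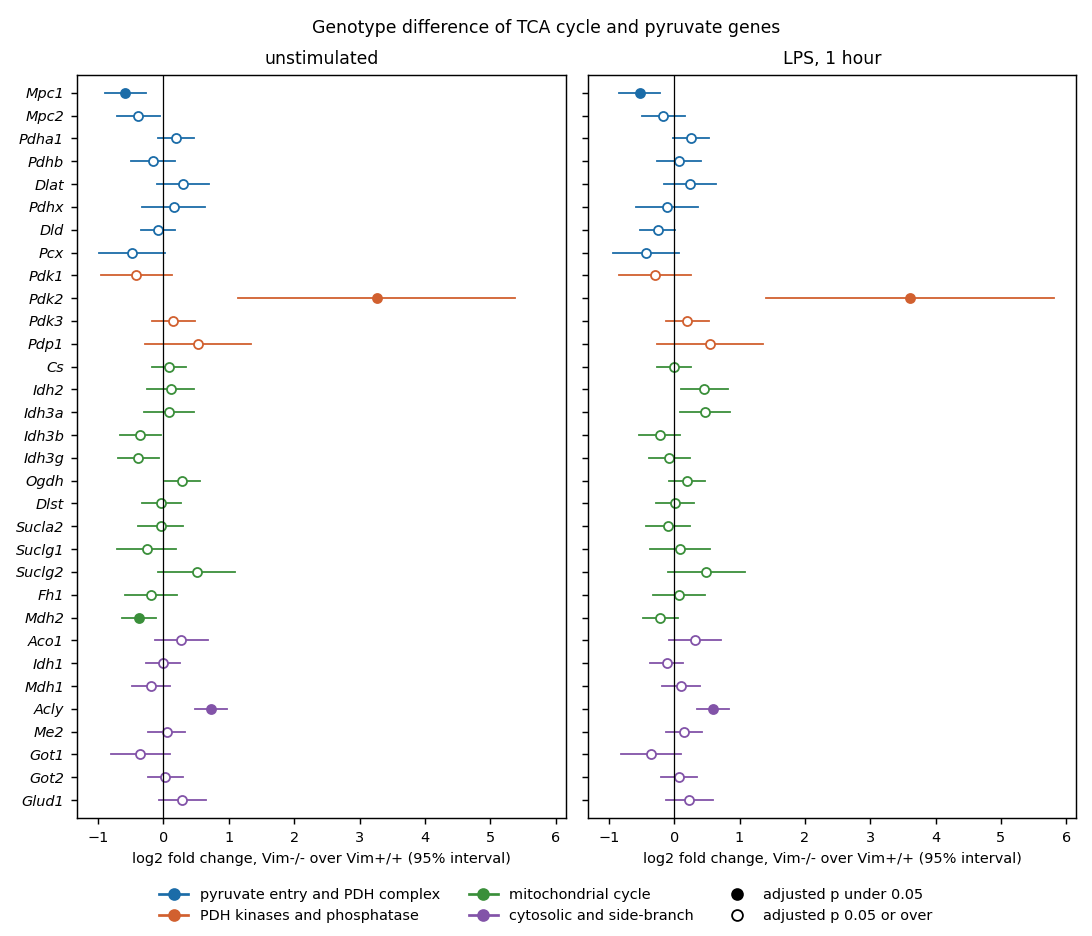
Points are log2 fold changes of *Vim-/-* over *Vim+/+* neutrophils for the 32 genes and lines their 95% intervals, unstimulated on the left and after 1 hour of LPS on the right; filled points passed the test. Most intervals cross 0, *Acly* lies above it and *Mpc1* below it in both panels, and *Pdk2* lies at 3.26 and 3.61 with the widest interval.

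Of the 8 genes of pyruvate entry and the pyruvate dehydrogenase complex 1 passed in each state (12.5%, against 18.8% of all genes unstimulated and 11% after LPS). That gene was *Mpc1*, the smaller subunit of the mitochondrial pyruvate carrier, which lies at chr17:8283787-8297667 (RefSeq, GRCm38.p6). Its transcript was lower in unstimulated *Vim-/-* cells by a log2 fold change of -0.58 (SE 0.160; adjusted p = 0.00325), so that *Vim+/+* cells held 1.5 times as much (95% interval 1.2 to 1.86). After LPS the fold change was -0.52 (SE 0.160; adjusted p = 0.0153). Its partner *Mpc2*, with which it forms the carrier, did not pass in either state, at -0.38 (SE 0.166; adjusted p = 0.0892) and -0.16 (SE 0.166; adjusted p = 0.633). Values of both subunits lay below 0 in both genotype comparisons, with and without each centring tried. *Mpc1* has the shortest transcript of the 32 genes (958 bases), and relative to genes of like transcript length its fold changes were -0.26 (adjusted p = 0.332) and -0.42 (adjusted p = 0.0702), which no longer passed. An exon of *4930506C21Rik* overlaps *Mpc1* on the opposite strand, at a mean normalized count of 41.6 against 3017 for *Mpc1*, and the strand setting of the counting was not given in the sources used here.

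The subunits of the pyruvate dehydrogenase complex, which commits pyruvate to oxidation, lay within 0.47 log2 units of each other in unstimulated cells and within 0.51 after LPS. For *Pdha1* and *Pdhb*, the subunits of its decarboxylase, the unstimulated values were 0.19 (SE 0.141) and -0.16 (SE 0.171). *Dlat*, the acetyl transferase, stood at 0.31 (SE 0.203), *Pdhx*, which anchors the last enzyme, at 0.16 (SE 0.245), and *Dld*, that last enzyme and one shared with the 2-oxoglutarate dehydrogenase complex, at -0.08 (SE 0.135). None of the 5 passed, and after LPS their values ran from -0.25 to 0.25. *Pdha1* overlaps an exon of *Map3k15* on the opposite strand, a gene with 188 normalized counts that was higher in *Vim-/-* cells by 2.47 (SE 0.714; adjusted p = 0.00559). Pyruvate carboxylase (*Pcx*), which makes oxaloacetate directly from pyruvate, had a value of -0.48 (SE 0.258; adjusted p = 0.196) before and -0.43 (SE 0.258) after LPS and did not pass.

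Among the regulators of that complex *Pdk2* stood apart. It encodes a kinase that switches pyruvate dehydrogenase off and lies at chr11:95026258-95041371. The fitted log2 fold change was 3.26 (SE 1.08; adjusted p = 0.0189) in unstimulated cells, a 9.59-fold higher level in *Vim-/-* cells with a 95% interval from 2.21 to 41.7, and 3.61 (SE 1.13; adjusted p = 0.0179) after LPS. Of the 32 genes *Pdk2* alone passed with a difference over 1 log2 unit, as 7.14% of all genes did unstimulated and 5.32% after LPS. Its mean normalized count was 304, and its SE was larger than that of any other of the 32 genes. Whether each *Vim-/-* replicate carried the higher level was not analysed here, since the tables hold no value per library. Relative to genes of like transcript length its unstimulated value was 3.29 (adjusted p = 0.0231). With the Wald statistics centred and divided by their robust spread its adjusted p was 0.839 unstimulated and 0.484 after LPS, so it did not pass. The other kinases, *Pdk1* (-0.41, SE 0.279, and -0.30 after LPS) and *Pdk3* (0.15, SE 0.165, and 0.20 after LPS), and the phosphatase *Pdp1*, which switches the complex on (0.53, SE 0.413, and 0.54 after LPS), did not pass.

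Of the 12 enzymes of the mitochondrial cycle 1 passed in unstimulated cells (8.33%, against 18.8% of all genes) and 0 after LPS (against 11%). At an unadjusted p under 0.05 there were 4 in unstimulated cells (33.3%, against 29.5% of all genes), *Ogdh* higher and *Mdh2*, *Idh3b* and *Idh3g* lower, and 2 after LPS (16.7%, against 22.1%), *Idh2* and *Idh3a*, both higher. The gene that passed was *Mdh2*, which regenerates oxaloacetate and closes the cycle, at chr5:135778649-135790386. It was lower in *Vim-/-* cells by a log2 fold change of -0.37 (SE 0.134; adjusted p = 0.0345), which is 1.29 times as much in *Vim+/+* cells (95% interval 1.08 to 1.55). After LPS the value was -0.21 (SE 0.134; adjusted p = 0.37). Relative to genes of like transcript length the unstimulated value of *Mdh2* was -0.24 (adjusted p = 0.257) and did not pass.

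The other 11 enzymes of the cycle did not pass in either state. *Cs*, which starts the cycle, stood at 0.08 (SE 0.134) and 0.00 (SE 0.133), so its 95% intervals reached no farther than 0.34 log2 units from 0. These intervals take the standard errors as fitted and were not widened for the spread of the Wald statistics. The subunits of the NAD-dependent isocitrate dehydrogenase did not share a sign. The catalytic subunit *Idh3a* stood at 0.08 (SE 0.195) unstimulated and 0.47 (SE 0.195; adjusted p = 0.106) after LPS, and the other subunits *Idh3b* and *Idh3g* at -0.35 (SE 0.161; adjusted p = 0.111) and -0.39 (SE 0.160; adjusted p = 0.0733) unstimulated, then -0.22 and -0.07 after LPS. *Idh3b* shares an overlap with *Nop56* on the opposite strand. *Idh2*, the NADPH-forming enzyme, had 0.11 (SE 0.183) and 0.46 (SE 0.183; adjusted p = 0.0856). The 2-oxoglutarate dehydrogenase subunits *Ogdh* (0.29, SE 0.138; adjusted p = 0.135) and *Dlst* (-0.03, SE 0.150) did not pass. Succinyl-CoA ligase, the step that makes ATP or GTP directly, had values of -0.26 (SE 0.231) for the shared subunit *Suclg1*, -0.04 (SE 0.173) for the ATP-forming *Sucla2* and 0.51 (SE 0.30) for the GTP-forming *Suclg2*. Fumarase (*Fh1*) stood at -0.19 (SE 0.201) and 0.08 (SE 0.201).

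Of the 8 cytosolic and side-branch enzymes 1, *Acly*, passed in each state (12.5%, against 18.8% of all genes unstimulated and 11% after LPS). ATP citrate lyase splits citrate exported from mitochondria into oxaloacetate and acetyl-CoA for fatty acid and sterol synthesis, and its gene lies at chr11:100476352-100528000. The transcript was abundant (15937 mean normalized counts) and was higher in unstimulated *Vim-/-* cells by a log2 fold change of 0.73 (SE 0.125; adjusted p = 3.72e-07), or 1.65-fold (95% interval 1.39 to 1.96). After LPS it was higher by 0.59 (SE 0.125; adjusted p = 0.000101), or 1.5-fold (95% interval 1.27 to 1.78). Relative to genes of like transcript length *Acly* still passed, at 0.46 (adjusted p = 0.00432) and 0.47 (adjusted p = 0.00414). With the Wald statistics divided by their robust spread its adjusted p was 0.118 unstimulated and 0.0850 after LPS.

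The other 7 did not pass in either state. *Aco1*, a cytosolic aconitase that also senses iron, had values of 0.28 (SE 0.206) and 0.32 (SE 0.206), and *Idh1*, the cytosolic source of NADPH from isocitrate, 0.00 (SE 0.132) and -0.12 (SE 0.132). The malate-aspartate shuttle, which carries reducing equivalents across the mitochondrial membrane, uses *Mdh1* (-0.19, SE 0.148, and 0.11 after LPS), *Got1* (-0.35, SE 0.234, and -0.36), *Got2* (0.03, SE 0.139, and 0.08) and *Mdh2*. *Got2* is overlapped on the opposite strand by *Gm45760*, which has no row in the tables used here. *Me2*, the mitochondrial malic enzyme that makes pyruvate from malate, stood at 0.05 (SE 0.142) and 0.15, and *Glud1*, which links glutamate to 2-oxoglutarate, at 0.29 (SE 0.184) and 0.23.

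**Figure D3:**
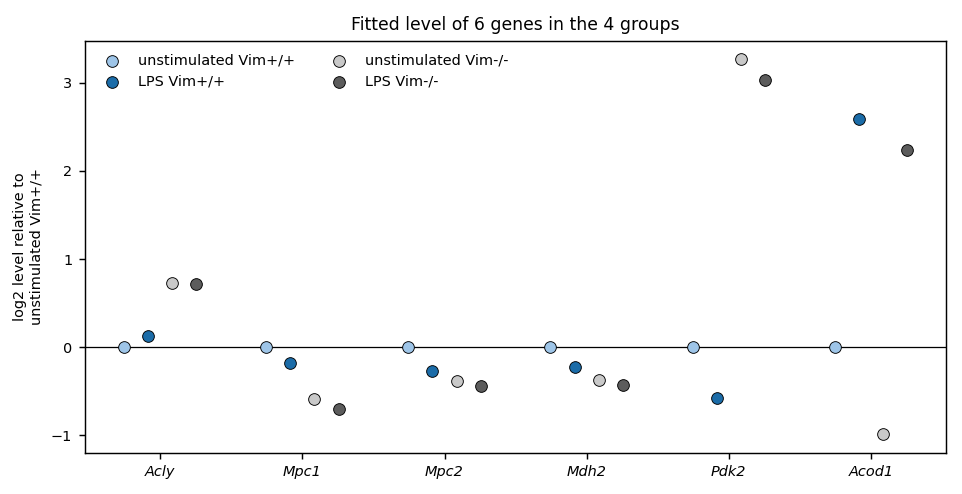
Points are fitted log2 levels of 5 of the 32 genes and of *Acod1* in the 4 groups, each relative to unstimulated *Vim+/+* cells at 0; errors are left out because the tables give them for differences between groups, and these stand in the text. For *Acly*, *Mpc1* and *Pdk2* the points separate by genotype more than by LPS, and for *Acod1* by LPS more than by genotype.

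The promoters of *Acly* and *Mpc1*, which passed in both states in opposite directions, are shown as the 250 bases before each gene's start in RefSeq on GRCm38.p6, in the direction of transcription. The reference is strain C57BL/6J, not that of the cells. Capitals mark matches, on either strand, to the GC box (GGGCGG, or CCGCCC on the other strand) and the CCAAT box (CCAAT, or ATTGG).
Acly, chr11:100528001-100528250, minus strand: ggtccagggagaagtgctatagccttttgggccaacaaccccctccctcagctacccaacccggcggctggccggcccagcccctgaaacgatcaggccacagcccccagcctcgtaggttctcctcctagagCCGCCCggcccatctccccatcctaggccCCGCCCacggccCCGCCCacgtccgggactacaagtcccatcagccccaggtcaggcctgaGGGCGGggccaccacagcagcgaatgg
Mpc1, chr17:8283537-8283786, plus strand: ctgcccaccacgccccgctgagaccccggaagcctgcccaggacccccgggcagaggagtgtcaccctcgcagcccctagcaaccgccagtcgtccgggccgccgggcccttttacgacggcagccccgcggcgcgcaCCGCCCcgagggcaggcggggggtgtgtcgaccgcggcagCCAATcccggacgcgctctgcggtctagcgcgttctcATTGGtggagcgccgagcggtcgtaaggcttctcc

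The *Acly* window holds GC boxes and no CCAAT box and is 68.8% G or C, and the *Mpc1* window holds both motifs and is 73.6% G or C. Windows were found for 29 of the 32 genes and for 9445 of all genes in the tables. A GC box was in 21 of the 29 windows (72.4%, against 58.7% of all windows) and a CCAAT box in 15 (51.7%, against 36.4%). Motifs of factors known from mitochondrial and growth control were rare. The E-box CACGTG was in 2 windows, those of *Pcx* and *Pdk2* (6.90%, against 8.46%), the nuclear respiratory factor 1 core GCGCATGC in 1, that of *Glud1* (3.45%, against 4.69%), and the estrogen-related receptor element AAGGTCA in 1, that of *Got1* (3.45%, against 2.87%). A match is a description of the letters and not evidence of a bound site.

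Fold changes of the pathway varied with transcript length in 3 of the 4 comparisons, as they did among all genes. Ranked over the 32 genes, Spearman's rho between length and the log2 fold change was 0.54 in unstimulated cells and 0.36 after LPS, against 0.31 and 0.14 over all genes with a length. For LPS in *Vim+/+* cells it was 0.56, against 0.30, and for LPS in *Vim-/-* cells -0.01, against 0.01. The comparison of unstimulated genotypes and that of LPS in *Vim+/+* cells share the unstimulated *Vim+/+* libraries, as their reference. These correlations are across genes of the same libraries, which are not independent replicates, and are given as a description. Of the 16 shorter transcripts 11 lay below 0 in unstimulated cells, with a median of -0.18, and of the 16 longer ones 5 did, with a median of 0.14. After LPS the medians were -0.08 and 0.18. Relative to genes of like length 2 of the 32 genes, *Acly* and *Pdk2*, passed in each state, against 13.4% of all genes with a length unstimulated and 10.1% after LPS.

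**Figure D4:**
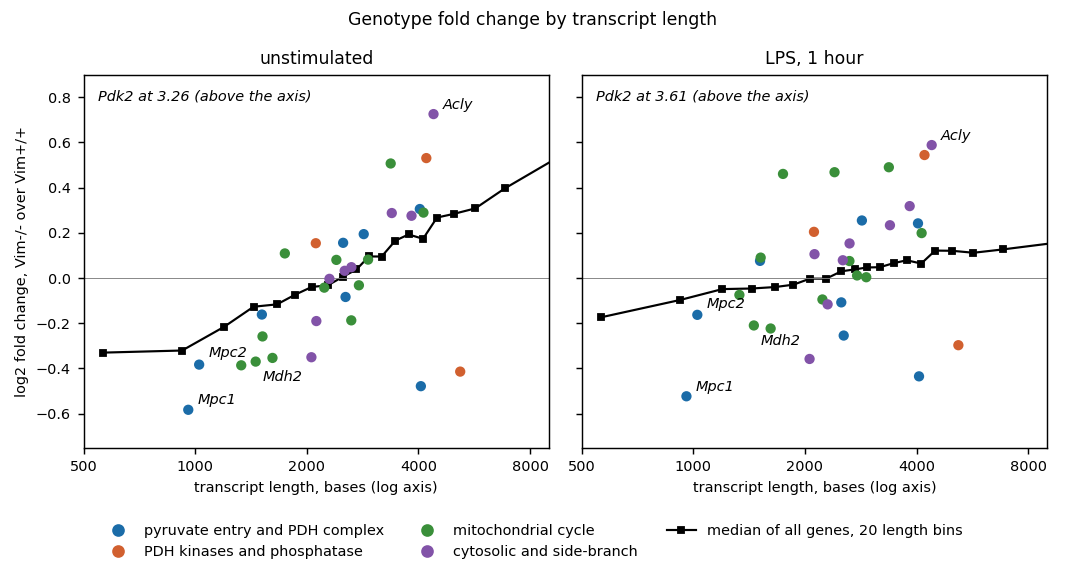
Points are 31 of the 32 genes by transcript length (bases, log axis) and log2 fold change of *Vim-/-* over *Vim+/+* cells, coloured by role, and squares joined by a line are medians of all genes in 20 bins of length; *Pdk2* lies above the axis, at 3.26 and 3.61. The line rises with length, more steeply in unstimulated cells, and the shorter transcripts *Mpc1*, *Mpc2* and *Mdh2* lie below it while the longer *Acly* lies above it.

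None of the 32 genes passed the test for 1 hour of LPS in either genotype. So few of all genes passed that 0 of 32 does not set the pathway apart. In *Vim+/+* cells 0 of 32 passed, against 2.17% of all genes, and values ran from -0.57 (*Pdk2*, SE 1.56) to 0.41 (*Dld*), with a median of -0.05. At an unadjusted p under 0.05 there were 2 genes, against 11.7% of all genes, *Dld* at 0.41 (SE 0.146; adjusted p = 0.146) and *Mdh1* at -0.32 (SE 0.160; adjusted p = 0.423). *Mdh1* overlaps an exon of *Wdpcp* on the opposite strand, a gene with 24.4 normalized counts against 4053 for *Mdh1* and a value of 3.08 (SE 1.59; adjusted p = 0.437) in this comparison. In *Vim-/-* cells 0 of 32 passed, against 2.21% of all genes, 0 had an unadjusted p under 0.05 (7.23% of all genes), and values ran from -0.23 (*Pdk2*, SE 0.692) to 0.28 (*Idh3a*, SE 0.176), with a median of 0.03. In each genotype 31 of the 32 intervals lay within 1 log2 unit of 0, the exception being *Pdk2*, against 56.5% of all genes in *Vim+/+* and 65.1% in *Vim-/-* cells. Of these intervals 13 in *Vim+/+* and 22 in *Vim-/-* cells lay within 0.5 log2 units of 0, against 2150 and 4128 of the 13091 genes. The median SE of the 32 genes was smaller than that of all genes, 0.182 against 0.292 in *Vim+/+* and 0.153 against 0.244 in *Vim-/-* cells. Their intervals are narrower for that reason, and genes of like count were not compared in this respect.

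**Figure D5:**
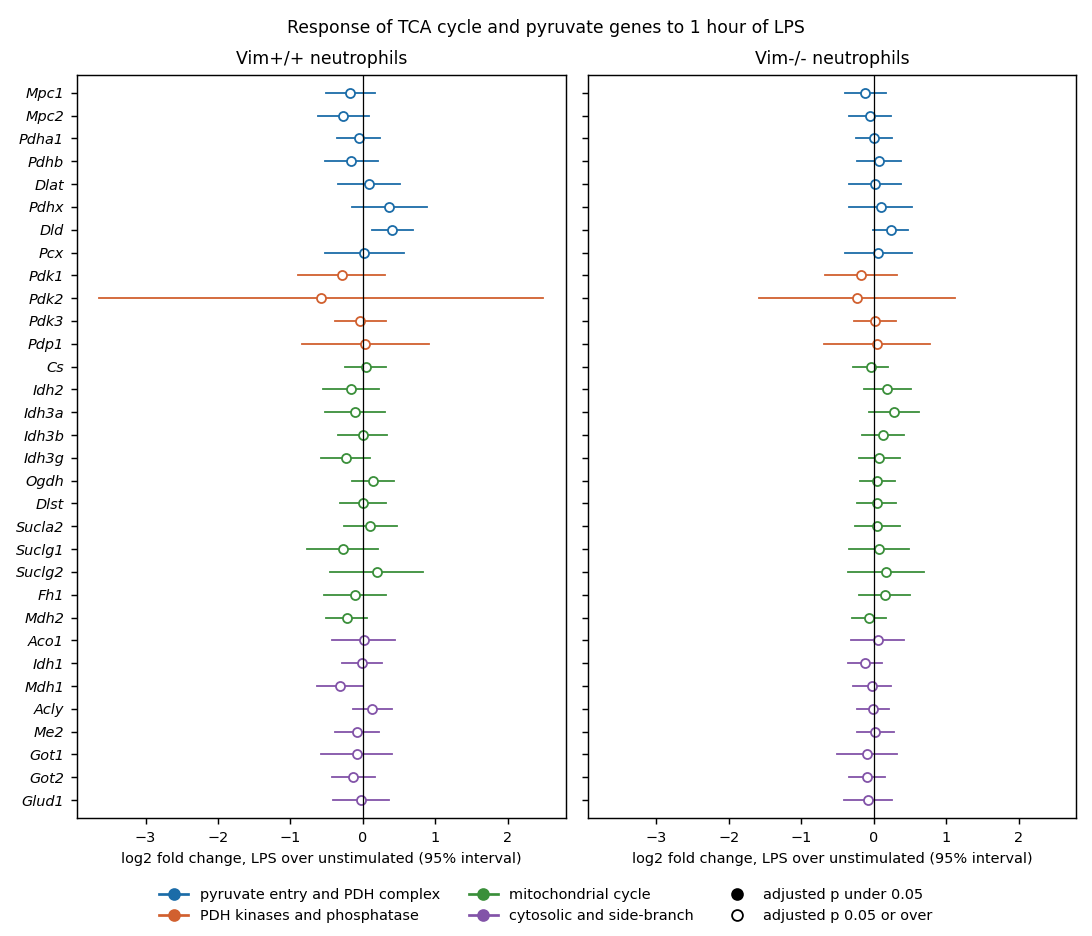
Points are log2 fold changes of LPS-treated over unstimulated neutrophils for the 32 genes and lines their 95% intervals, *Vim+/+* cells on the left and *Vim-/-* cells on the right; filled points would mark genes that passed, and there are none. Most intervals cross 0, and that of *Pdk2* is the widest in both panels.

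The responses of the genotypes to LPS were compared as the log2 fold change in *Vim-/-* minus that in *Vim+/+* cells, by a two-sided normal test on the deposited standard errors that is approximate because their covariance is not given. Of the 32 genes 0 passed, against 0.0764% of all genes, and 0 had an unadjusted p under 0.05, against 6.04% of all genes. With so low a share passing over all genes, 0 of 32 does not set these genes apart. Differences ran from -0.26 to 0.39, the smallest adjusted p was 0.938, and 30 of the 32 intervals lay within 1 log2 unit of 0, against 47.1% of all genes. Here too the median SE was smaller for the 32 genes (0.237, against 0.381 for all genes). For *Acly* the interval ran from -0.48 to 0.21, and for *Mpc1* from -0.38 to 0.50.

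Of 38 further genes of the pathway and its neighbours 32 were in the tables. Of these 3 passed between genotypes in unstimulated cells (1 higher, 2 lower in *Vim-/-*), 3 after LPS (2 higher, 1 lower), 2 with LPS in *Vim+/+* cells and 1 with LPS in *Vim-/-* cells. These are 9.38% in each genotype comparison, against 18.8% and 11% of all genes, and 6.25% and 3.12% with LPS, against 2.17% and 2.21%. The largest response was that of *Acod1*, which turns the cycle intermediate cis-aconitate into itaconate. LPS raised it by a log2 fold change of 2.58 (SE 0.219; adjusted p = 3.72e-29) in *Vim+/+* cells, or 5.99-fold, and by 3.22 (SE 0.184; adjusted p = 3.5e-65) in *Vim-/-* cells, or 9.29-fold. Before LPS *Acod1* was lower in *Vim-/-* cells (log2 fold change -0.98, SE 0.204; adjusted p = 3.97e-05), and after it the genotypes differed by -0.35 (SE 0.201; adjusted p = 0.297). The difference between the responses was 0.63 (SE 0.286) with an unadjusted p of 0.027 and an adjusted p of 0.781, so it did not pass.

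*Pdpr*, a regulatory subunit of the pyruvate dehydrogenase phosphatase, rose with LPS in *Vim+/+* cells (0.88, SE 0.237; adjusted p = 0.0139) and stood at 0.00 (SE 0.198) in *Vim-/-* cells. It was higher in unstimulated *Vim-/-* cells (0.73, SE 0.220; adjusted p = 0.00782), and its difference between responses was -0.88 (SE 0.309; unadjusted p = 0.00424, adjusted p = 0.482) and did not pass. *Sdhb*, the iron-sulfur subunit of succinate dehydrogenase, was lower in unstimulated *Vim-/-* cells (-0.52, SE 0.192; adjusted p = 0.0368), and the values of the 4 subunits of that enzyme ran from -0.52 to 0.11. After LPS *Slc16a1*, a lactate and pyruvate transporter of the plasma membrane (0.97, SE 0.281; adjusted p = 0.00882), and *Slc25a12*, the aspartate-glutamate carrier of the malate-aspartate shuttle (0.54, SE 0.175; adjusted p = 0.0238), were higher in *Vim-/-* cells, and *D2hgdh*, which oxidizes 2-hydroxyglutarate, was lower (-1.64, SE 0.514; adjusted p = 0.0187). With the Wald statistics centred and divided by their robust spread, none of the genotype differences given here for these further genes passed, nor did the LPS response of *Pdpr* (adjusted p = 0.105), and both LPS responses of *Acod1* did. Relative to genes of like transcript length *Sdhb* (-0.31; adjusted p = 0.329), *Slc25a12* (0.41; adjusted p = 0.118) and *Pdpr*, both between genotypes (0.45; adjusted p = 0.179) and with LPS (0.73; adjusted p = 0.0892), did not pass.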

How the data were processed

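RNA was measured in 10 libraries of 4 groups, named from the sample labels. The authors trimmed with cutadapt 4.4, used STAR 2.7.10b for alignment to mm10 and for counting, took 4 RUVSeq covariates for unwanted variation and entered them in a DESeq2 1.26.0 model, which left 2 residual degrees of freedom for 10 libraries; the gene annotation was not given in the sources used here. The deposited signal is baseMean, the authors' mean normalized count over libraries. Deposited log2 fold changes and standard errors come from the authors' fit, as do the deposited p-values and adjusted p-values of the Wald test. These comparison columns were the only values used, with their unit as given, and no values per library were analysed here, so depth is unknown and precision rests on the standard errors.

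With Python 3.11.15, numpy 2.4.6, scipy 1.17.1 and pandas 2.3.3 (figures: matplotlib 3.10.9), the sign of genotype fold changes was set so that *Vim-/-* over *Vim+/+* is given, genes were counted at an adjusted p under 0.05, and the LPS responses were subtracted and tested with Benjamini-Hochberg adjustment over 13091 genes. Intervals are normal 95% intervals on the deposited standard errors. They were not widened for the robust spread of the Wald statistics, which was 1.83 and 1.5 in the genotype comparisons, nor for the few residual degrees of freedom. Transcript lengths are of GENCODE M21 principal transcripts, known for 92.0% of genes, and positions and promoters of RefSeq on GRCm38.p6, where all 32 symbols matched. The alternatives were p adjusted over every gene, a mean normalized count of at least 100, fold changes centred on the median, Wald statistics centred and rescaled, fold changes centred on genes of like transcript length (20 bins), other standard errors for the difference, and an added fold-change limit of 1 log2 unit. Tests were tried on simulated fold changes spread as the deposited standard errors state, and on unchanged genes shifted and widened by a known amount. The former lack the wider spread that the Wald statistics had between genotypes, so they do not show how many calls here are false. Every one of the 32 genes could be named, and of the further pathway genes those that passed, up to a limit of 8, and *Acod1*. The 32 genes and all lists were chosen with earlier results of these data known.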

Additional observations from a re-analysis of the deposited data

How the results depend on the processing

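With the Wald statistics centred and rescaled, the number of the 32 genes that passed fell from 4 to 0 in unstimulated cells and from 3 to 0 after LPS. Centred on genes of like transcript length it was 2 (*Pdk2* and *Acly*) unstimulated, against 13.4% of all genes with a length, and 2 after LPS, against 10.1%, and with an absolute log2 fold change over 1 as well it was 1 (*Pdk2*) in each state. After the median of those genes whose mean normalized count was 100 or more (0.06 log2 units) was taken off, 6 passed unstimulated (against 18.3% of all genes), *Mpc2* (adjusted p = 0.0431) and *Idh3g* (adjusted p = 0.0334) besides the 4, and the median of the 32 turned from 0.01 to -0.05. For LPS in either genotype and for the difference of responses the count was 0 under every alternative run. Over all genes the unstimulated count was 2410, 188 rescaled and 917 with the fold-change limit. After LPS these were 1416, 290 and 683. For LPS in *Vim+/+* cells they were 284, 157 and 172, and for LPS in *Vim-/-* cells 272, 311 and 143. For the difference of responses the count was 10, and 4 at a mean normalized count of at least 100 and 6 relative to genes of like length. Of the values of genes named with a call or a difference of responses, recomputed under the alternatives, 69 kept their side of the threshold, 21 lost it and none changed sign. Some genes of the 32 that did not pass changed sign under an alternative, after which none lay more than 0.09 log2 units from 0. The causes of these changes were not tested beyond what each alternative's construction shows.

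No paired analysis was possible because the tables carry no values per library, and for the same reason leaving out a replicate and a count model were not run. With 2 *Vim+/+* and 3 *Vim-/-* replicates and 4 covariates, the depth of each library and the weight of a single library in a value are unknown. *Pdk2* has the largest standard error of the 32 genes, with an unstimulated interval of 2.21 to 41.7-fold.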
